A study of Mus musculus with 20 samples.

Results

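The 9 genes *Ifit1*, *Ifit3*, *Isg15*, *Bst2*, *Ifi44*, *Usp18*, *Stat2*, *Irf9* and *Irf7* belong to the interferon response, and their transcripts were followed in the outer eyecup of the mouse, the tissue made of retinal pigment epithelium (RPE) and choroid. They were picked by gene symbol out of 24411 genes in the deposited table, and all 9 were among the 18807 genes tested. RNA-seq data came from WT mice and from *Stra6*-/- mice, which lack the retinol transporter of the RPE, all labelled as strain C57BL/6 (C57BL/6J for the mutant line in the study's methods). From weaning at about 28 days, mice of each genotype ate a vitamin A sufficient (VAS, 4 IU/g) or a vitamin A deficient (VAD, 0 IU/g) diet for 12 weeks, with 5 samples in each of the 4 groups. Per the study's methods, each sample pooled the eyecups of 1 mouse, the WT mice were bought in while the *Stra6*-/- line was bred in house, and all animals were raised on standard chow until weaning. STRA6 moves retinol from the blood into the RPE, so the design asks what the loss of this transporter and the loss of dietary vitamin A, alone and together, do to the transcripts of this tissue.

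Interferons are secreted proteins that warn cells of infection or damage. Type I interferons bind the IFNAR1 and IFNAR2 receptor chains, and the kinases JAK1 and TYK2 then activate STAT2, which joins IRF9 in a complex that binds a DNA element named ISRE. Interferon gamma uses another receptor and acts mostly through an element named GAS. Of the 9 genes, *Stat2* and *Irf9* encode parts of the complex and *Irf7* a transcription factor that amplifies type I interferon production. *Ifit1* and *Ifit3* encode proteins that bind foreign RNA or help to, *Bst2* encodes tetherin, which holds budding virus at the cell surface, and *Isg15* a ubiquitin-like protein that is attached to other proteins. *Usp18* encodes the protease that removes ISG15 and also dampens the type I receptor, and *Ifi44* is an interferon-induced gene. Resident macrophages, microglia, endothelium and epithelia, the RPE among them, can all express such genes.

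The upstream sequence shows which of the 9 genes carry the ISRE in the letters next to their start. The core of the ISRE was searched as GAAANNGAAA on either strand (TTTCNNTTTC where it lies on the strand opposite to the gene), in the 250 bases before to 50 bases after each RefSeq start (GRCm38.p6). Of the 32851 promoter entries of the genome, 3.44% held it. An entry was found for 8 of the 9 genes, all but *Usp18*, and 5 of these 8 held the core. *Isg15* had 3 overlapping copies, *Bst2*, *Ifit3* and *Ifit1* had 2 each and *Stat2* had 1, whereas no copy lay in the windows of *Irf7*, *Irf9* and *Ifi44*. The GAS, searched as TTCNNNGAA and present in 8.3% of all entries, was found in *Bst2* alone among the 8. A match is a description of letters and does not show that a factor binds. The stretches around the matches are printed below 5′ to 3′ on the gene's strand, with the ISRE cores in capitals. They lie at chr4:156200825-156200946 (minus strand) for *Isg15*, chr8:71537537-71537652 (minus) for *Bst2*, chr10:128270248-128270335 (plus) for *Stat2*, chr19:34583323-34583466 (plus) for *Ifit3* and chr19:34640735-34640863 (plus) for *Ifit1*. *Ifit1bl1*, a neighbour of *Ifit1* and *Ifit3* whose transcript moved the other way, is shown for comparison from chr19:34602013-34602122 (minus).
*Isg15*: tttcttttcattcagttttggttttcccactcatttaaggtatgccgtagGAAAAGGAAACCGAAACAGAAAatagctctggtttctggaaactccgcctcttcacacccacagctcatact
*Bst2*: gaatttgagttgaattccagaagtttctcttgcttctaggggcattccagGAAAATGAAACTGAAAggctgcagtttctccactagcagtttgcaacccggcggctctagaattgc
*Stat2*: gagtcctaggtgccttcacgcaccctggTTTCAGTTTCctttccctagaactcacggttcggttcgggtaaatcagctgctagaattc
*Ifit3*: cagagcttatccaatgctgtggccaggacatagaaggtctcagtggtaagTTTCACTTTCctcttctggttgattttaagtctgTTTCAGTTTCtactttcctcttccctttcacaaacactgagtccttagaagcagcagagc
*Ifit1*: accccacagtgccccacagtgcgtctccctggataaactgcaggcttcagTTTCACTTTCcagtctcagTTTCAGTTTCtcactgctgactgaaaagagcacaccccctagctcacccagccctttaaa
*Ifit1bl1*: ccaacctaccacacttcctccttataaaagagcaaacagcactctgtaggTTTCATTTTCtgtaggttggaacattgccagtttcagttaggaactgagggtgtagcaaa

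Several features of the libraries touch every result. Between 13331903 and 21878614 reads per library, with a median of 17785927, lay behind the normalized values, which are gene counts divided by 1 size factor per library. The targeted gene *Stra6* was at 2414 to 2742 in VAS WT and 564 to 694 in VAS *Stra6*-/-. In the libraries labelled VAD *Stra6*-/- *Stra6* was at 1973 to 2393, which taken alone goes against that label. In the libraries labelled VAD WT it was at 669 to 697 in replicates 1, 3 and 5 and at 1340 to 1529 in replicates 2 and 4. The summed RPE markers differed as well. Their mean was 130270 in VAS WT, 139070 in VAS *Stra6*-/-, 54170 in libraries labelled VAD WT and 548181 in those labelled VAD *Stra6*-/-. Set against these sums, *Stra6* was lower in both groups labelled *Stra6*-/- than in both labelled WT. The level of *Stra6* alone thus does not settle the genotype of either VAD group. *Stra6* differed by -1.49 on the log2 scale (adjusted p = 6.74e-06) between the WT labels of both diets. The genotypes of both VAD groups are therefore named only as their labels give them, and a direction drawn from either group holds for these libraries and not for a genotype. The X-linked *Xist* was at 7.69 to 38.4 in VAS WT and 15320 to 18052 in VAS *Stra6*-/-, so that genotype and sex-linked transcripts cannot be told apart on the VAS diet. Each library labelled VAD *Stra6*-/- held both *Xist* (3570 to 4280) and the Y-linked *Ddx3y* (741 to 970). These values leave it open whether each of them came from 1 mouse. The p-values below measure the spread between libraries, which may therefore not be the spread between mice. *Ddx3y* was at 0 to 1.02 in VAS *Stra6*-/-. Diet and sex-linked transcripts therefore cannot be told apart among libraries labelled *Stra6*-/- either, nor in the interaction. Among libraries labelled VAD WT, replicates 2 and 4 had *Xist* at 10912 to 11767 and *Ddx3y* at 75.2 to 80.5, against 174 to 234 and 1041 to 1133 in replicates 1, 3 and 5. Comparisons with this group are for this reason also given without replicates 2 and 4 and without replicates 1, 3 and 5, where a called value moved by over 1.5 times or a call changed.

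The summed normalized values of marker genes also differed between groups by large amounts. The sum of 10 surface epithelium and cornea genes was between 552425 and 681793 in VAS WT, between 832881 and 865533 in VAS *Stra6*-/- and only 20978 to 28041 in libraries carrying the VAD *Stra6*-/- label. Within the libraries labelled VAD WT this sum was 1082380 to 1115000 in replicates 1, 3 and 5 and 372165 to 374194 in replicates 2 and 4. The sum of 10 RPE genes was 124044 to 140391 in VAS WT, 39535 to 74650 in those labelled VAD WT, 134540 to 142099 in VAS *Stra6*-/- and 526458 to 571918 in the libraries labelled VAD *Stra6*-/-. The 12 macrophage and microglia genes summed to 10821 to 12061, 6594 to 8690, 11468 to 12721 and 30452 to 31712 in the same order. The 10 lymphocyte and plasmacytoid dendritic cell genes stayed low everywhere, with sums of 70.0 to 161. Against VAS *Stra6*-/-, the libraries labelled VAD *Stra6*-/- also had 4 of 10 endothelium and 6 of 6 fibroblast and sclera genes higher. In the same comparison 4 of 8 rod and 2 of 6 skeletal muscle genes (33.3%) were lower. Over all genes 24.4% were called higher and 28.8% lower there, so the share of muscle genes lay near that of all genes. No listed marker was at 0 in all libraries of a group, so RPE and surface epithelium markers were both detected in every group. In bulk tissue, fewer cells of a type and less RNA per cell cannot be told apart, and the part that these cell types play in the interferon genes was not tested.

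Per kilobase of exon, *Bst2* was the most abundant of the 9 transcripts in each of the 4 groups, followed by *Ifit3* and *Isg15*. In VAS WT the level was 1611 ± 119 (SD, n = 5) normalized counts per kilobase for *Bst2*, 844 ± 29.1 for *Ifit3* and 373 ± 48.4 for *Isg15*. *Irf7* (192 ± 17.5), *Stat2* (164 ± 4.80), *Ifit1* (162 ± 22.7) and *Irf9* (127 ± 10.2) came next, and *Stat2* and *Ifit1* differed from each other by less than their spread. *Usp18* (53.0 ± 13.7) and *Ifi44* (6.05 ± 1.48) closed the order in VAS WT and in each other group. *Irf7* moved from the fourth place per kilobase in both WT groups to the seventh in both groups labelled *Stra6*-/-.

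**Figure D1:**
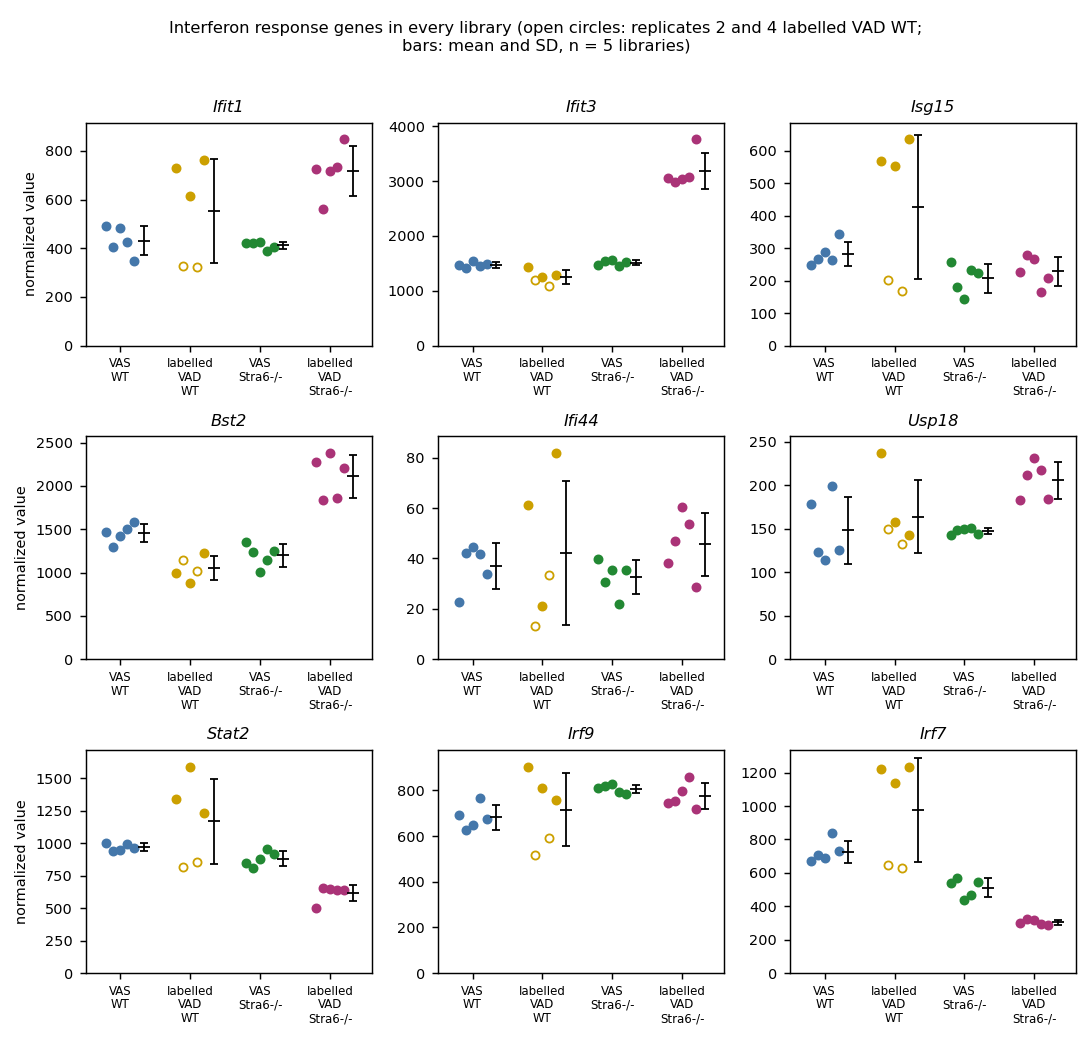
Normalized value (gene count divided by the library's size factor, linear axis from 0) of each of the 9 genes in each of the 20 libraries, by group, with the mean and SD of 5 libraries beside the points and replicates 2 and 4 labelled VAD WT as open circles. *Ifit3* and *Bst2* lay above all 15 other libraries in the libraries labelled VAD *Stra6*-/-, *Irf7* and *Stat2* lay below all of them, and those labelled VAD WT split into a high and a low set for most genes.

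The 9 genes did not move as a block in any comparison. In VAS *Stra6*-/- against VAS WT, *Irf7* and *Bst2* were lower and no gene was higher, so that 22.2% of the 9 were called lower, where 10.8% of all genes tested were called lower and 15.9% higher. In libraries labelled VAD WT against VAS WT, *Bst2* and *Ifit3* were lower and none was higher, against a background of 5.5% lower and 3.29% higher. At an unadjusted p under 0.05, 1 gene was higher in each of these comparisons (*Irf9* and *Irf7*), and edgeR and DESeq2 called none higher in either. In the libraries labelled VAD *Stra6*-/- against VAS *Stra6*-/-, *Ifit3*, *Bst2*, *Ifit1* and *Usp18* rose and *Irf7* and *Stat2* fell. These are 4 and 2 of 9 genes, where 24.4% of all genes were called higher and 28.8% lower. Against libraries labelled VAD WT, the same libraries had *Ifit3* and *Bst2* higher and *Irf7*, *Stat2* and *Isg15* lower, where 26.2% of all genes were called higher and 29.6% lower. With over 50% of all genes called in each of these last 2 comparisons, being called says little about the 9 genes, and the size and direction of each gene carry the description. The median log2 fold change of the 9 genes was -0.14, 0.15, 0.45 and 0.34 in the 4 comparisons in this order, beside medians over all genes of 0.02, 0.00, -0.07 and -0.05. Calls rest on limma with Benjamini-Hochberg adjustment over the 18807 genes and an adjusted p under 0.05. The comparisons share libraries, so they are not independent of each other.

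**Figure D2:**
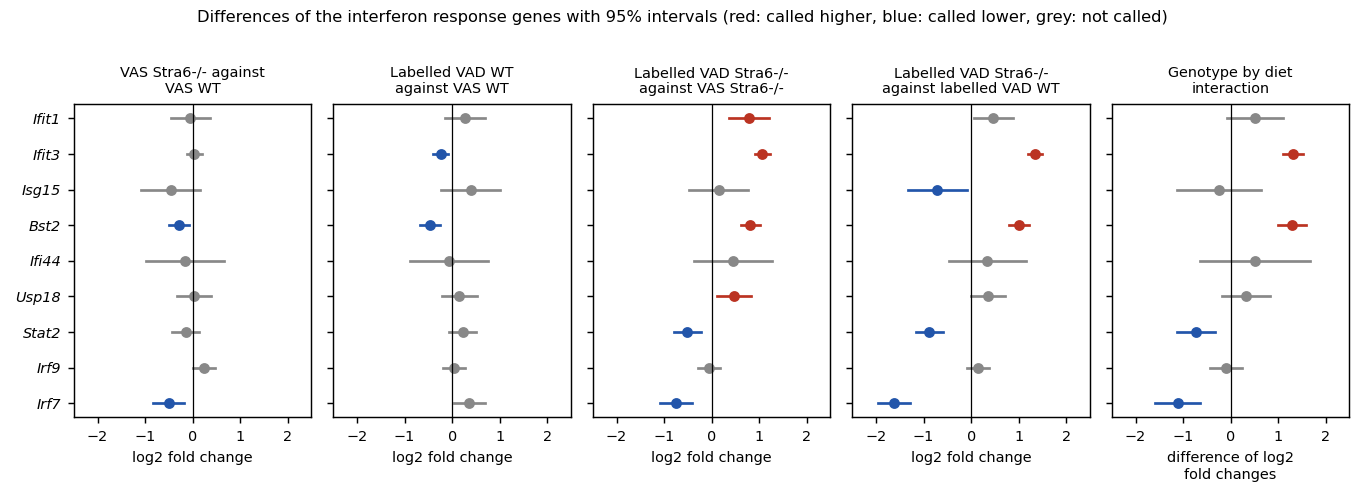
Log2 fold change of each of the 9 genes (points) with its 95% interval from limma (lines) in the 4 comparisons, and the difference between the diet differences of the genotype labels in the last panel. *Ifit3* and *Bst2* reached 1.35 and 1.00 in the libraries labelled VAD *Stra6*-/- against those labelled VAD WT, where *Irf7* reached -1.62.

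*Ifit3*, at chr19:34583531-34588731 of GRCm38, gave the largest rise of the 9 genes. Its normalized values were 1473, 1412, 1548, 1447 and 1487 in VAS WT, 1424, 1188, 1254, 1088 and 1295 in those labelled VAD WT, and 1466, 1543, 1563, 1457 and 1519 in VAS *Stra6*-/-. Libraries labelled VAD *Stra6*-/- had 3049, 2978, 3039, 3071 and 3763. Each of the latter 5 libraries lay above all 15 others, whereas the 2 VAS groups overlapped and differed by only 0.03 on the log2 scale (adjusted p = 0.776). The log2 fold change was 1.07 (standard error 0.07, adjusted p = 5.00e-11) against VAS *Stra6*-/- and 1.35 (standard error 0.07, adjusted p = 1.22e-12) against those labelled VAD WT. Libraries labelled VAD WT had *Ifit3* lower by -0.24 against VAS WT (adjusted p = 0.0406), with overlap between the groups, and it was -0.16 (adjusted p = 0.0680) without replicates 2 and 4 and -0.37 (adjusted p = 6.62e-04) without replicates 1, 3 and 5. This call was also lost on leaving out any of 10 of the 20 libraries in turn. These are VAS WT replicates 1, 3, 4 and 5, replicates 2, 3 and 4 labelled VAD WT, and VAS *Stra6*-/- replicates 1, 2 and 5. The log2 fold change then ran from -0.25 to -0.19 and the adjusted p from 0.0506 to 0.0948.

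*Ifit1*, at chr19:34640871-34650009, followed *Ifit3* in part. It was at 493, 404, 482, 427 and 345 in VAS WT and 420, 421, 425, 388 and 407 in VAS *Stra6*-/-. The libraries labelled VAD *Stra6*-/- had 725, 560, 715, 734 and 848, all above VAS *Stra6*-/-, and the log2 fold change was 0.79 (standard error 0.20, adjusted p = 0.00210). Those labelled VAD WT had 729, 329, 613, 322 and 763. Replicates 1, 3 and 5 of that group thus lay in the range of the libraries labelled VAD *Stra6*-/-, and replicates 2 and 4 below all VAS libraries. Against those labelled VAD WT as a whole the difference was 0.46 (95% interval 0.05 to 0.88, adjusted p = 0.0529), which missed the threshold. It passed on leaving out replicate 1, 3 or 5 labelled VAD WT or replicate 2 of the libraries labelled VAD *Stra6*-/-, with adjusted p from 0.0131 to 0.0430. Without replicates 1, 3 and 5 labelled VAD WT together it was 1.13 (adjusted p = 1.18e-06), and without replicates 2 and 4 it was 0.02 (adjusted p = 0.891).

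The Ifit genes sit side by side on chromosome 19, and their close copies did not all move with them. *Ifit3b* shared 31.7% of the 100-base stretches of the *Ifit3* transcripts, so reads of this pair can be split between them, and *Ifit3b* rose together with *Ifit3* by 0.80 against VAS *Stra6*-/- (adjusted p = 8.11e-07). The sum of *Ifit3* and *Ifit3b* rose by 1.00 in the same comparison. *Ifit2*, named here after its values were seen, rose by 1.40 (adjusted p = 6.74e-10), from 176 to 211 in VAS *Stra6*-/- to 463 to 528. *Ifit1bl1*, which shared none of these stretches with *Ifit1*, fell instead, from 5547 to 6037 in VAS *Stra6*-/- to 136 to 189 in the libraries labelled VAD *Stra6*-/-, a log2 fold change of -5.07 (adjusted p = 5.47e-19). It was also lower in libraries labelled VAD WT than in VAS WT, by -1.11 (adjusted p = 7.50e-07), and by -1.44 or -0.88 without replicates 1, 3 and 5 or without 2 and 4. Summing *Ifit1* with *Ifit1bl1* and *Ifit1bl2* therefore turned the direction of *Ifit1* in this comparison, to -2.79. The window of *Ifit1bl1* printed above holds 1 ISRE core and those of *Ifit1* and *Ifit3* hold 2 each.

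**Figure D3:**
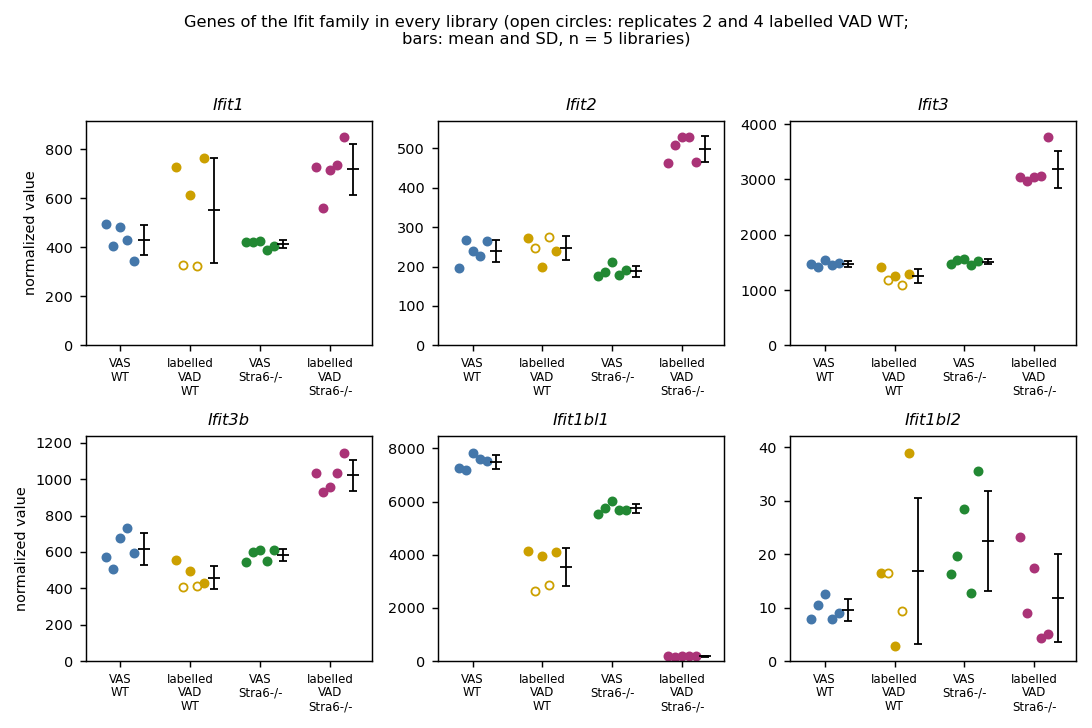
Normalized value (linear axis from 0, a separate scale in each panel) of 6 Ifit genes in each library, with the mean and SD of 5 libraries and replicates 2 and 4 labelled VAD WT as open circles. *Ifit2*, *Ifit3* and *Ifit3b* were highest in the libraries labelled VAD *Stra6*-/-, and *Ifit1bl1* was lowest there.

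*Bst2*, at chr8:71534255-71537456 on the minus strand, was the gene with calls in all 4 comparisons. Its values were 1466, 1295, 1424, 1504 and 1585 in VAS WT and 993, 1150, 885, 1018 and 1223 in those labelled VAD WT. VAS *Stra6*-/- had 1352, 1241, 1004, 1141 and 1249, and the libraries labelled VAD *Stra6*-/- had 2271, 1837, 2381, 1858 and 2209. The last group lay above all 15 other libraries, and those labelled VAD WT lay below VAS WT without overlap. The log2 fold change was -0.47 in libraries labelled VAD WT against VAS WT (standard error 0.10, adjusted p = 0.00342) and stayed between -0.53 and -0.41 under the 33 alternatives that kept the same rule for a call, and it was called in each. It was not called where a log2 fold change over 1 was required as well. The libraries labelled VAD *Stra6*-/- rose by 0.82 against VAS *Stra6*-/- (adjusted p = 3.94e-07) and by 1.00 against those labelled VAD WT (adjusted p = 1.94e-08). In VAS *Stra6*-/- against VAS WT the fall of 0.29 (adjusted p = 0.0367) came with overlap between the groups. It was lost without VAS WT replicate 1, 3, 4 or 5 or without VAS *Stra6*-/- replicate 2, 3 or 4, where the log2 fold change ran from -0.30 to -0.22 and the adjusted p from 0.0502 to 0.117.

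*Isg15*, at chr4:156199424-156200818 on the minus strand, and the enzymes that attach or remove its product did not move together. *Isg15* was at 249, 266, 288, 264 and 343 in VAS WT, 256, 180, 144, 234 and 222 in VAS *Stra6*-/-, and 226, 278, 265, 166 and 209 in the libraries labelled VAD *Stra6*-/-. Those labelled VAD WT had 568, 202, 552, 169 and 636, the widest spread of the 9 genes after *Ifi44*, with a coefficient of variation of 52.1%. These 3 high replicates, 1, 3 and 5, stood above every other library of the study. The libraries labelled VAD *Stra6*-/- were lower than those labelled VAD WT by -0.71 (standard error 0.30, adjusted p = 0.0483). This call was kept in 13 of 33 alternatives with the same rule for a call, and the value turned to 0.28 (adjusted p = 0.288) without replicates 1, 3 and 5 labelled VAD WT, and was -1.37 without replicates 2 and 4. It was lost on leaving out any library of 16, namely all 5 of VAS WT, replicates 1, 3 and 5 labelled VAD WT, and all but replicate 3 of VAS *Stra6*-/- and replicate 2 of the libraries labelled VAD *Stra6*-/-, with adjusted p from 0.0525 to 0.160. In the other comparisons *Isg15* was not called, with 95% intervals of -1.08 to 0.16 for VAS *Stra6*-/- against VAS WT and -0.47 to 0.77 for the libraries labelled VAD *Stra6*-/- against VAS *Stra6*-/-.

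*Usp18*, at chr6:121245906-121270917, which removes ISG15 from proteins, was at 179, 123, 114, 199 and 125 in VAS WT and 237, 149, 157, 133 and 143 in those labelled VAD WT. VAS *Stra6*-/- had 142, 148, 149, 151 and 144, and the libraries labelled VAD *Stra6*-/- had 183, 211, 231, 218 and 183. The last 5 all lay above VAS *Stra6*-/- but overlapped with both WT groups. *Usp18* rose by 0.47 against VAS *Stra6*-/- (standard error 0.17, adjusted p = 0.0261), a call that was lost without replicate 3 (0.43, adjusted p = 0.0616) or replicate 4 (0.45, adjusted p = 0.0513) of the libraries labelled VAD *Stra6*-/-. Against those labelled VAD WT the difference was 0.35 (adjusted p = 0.0950), and it passed without replicate 1 labelled VAD WT (0.49, adjusted p = 0.0141) or without replicates 1, 3 and 5 (0.54, adjusted p = 0.0262). A lincRNA, *Gm44148*, overlaps *Usp18* on the opposite strand, and strand-specific counting is not stated, so reads of the pair cannot be told apart. Of the 4 enzymes listed for ISG15 conjugation, *Ube2l6*, the E2 enzyme, rose by 0.83 against VAS *Stra6*-/- (adjusted p = 7.72e-08). *Uba7*, the E1 enzyme, fell by 1.25 (adjusted p = 6.68e-07) and the ligase gene *Trim25* by 1.35 (adjusted p = 1.29e-10).

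*Stat2* and *Irf9* encode partners of the same complex, and *Stat2* was called where *Irf9* was not. *Stat2*, at chr10:128270559-128292849, was at 1003, 940, 949, 998 and 967 in VAS WT, 1342, 817, 1591, 859 and 1231 in those labelled VAD WT, and 849, 807, 878, 953 and 913 in VAS *Stra6*-/-. Libraries labelled VAD *Stra6*-/- had 503, 655, 649, 637 and 639, below all 15 others. *Stat2* fell by 0.52 against VAS *Stra6*-/- (standard error 0.14, adjusted p = 0.00285) and by 0.88 against those labelled VAD WT (standard error 0.14, adjusted p = 1.08e-05). The latter value was -0.45 (adjusted p = 3.28e-04) without replicates 1, 3 and 5 labelled VAD WT and -1.17 (adjusted p = 1.81e-10) without replicates 2 and 4. *Irf9*, at chr14:55603571-55610030, ran from 625 to 769 in VAS WT, 518 to 904 in those labelled VAD WT, 786 to 827 in VAS *Stra6*-/- and 718 to 859 in the libraries labelled VAD *Stra6*-/-. All VAS *Stra6*-/- libraries were above VAS WT, by 0.24 (95% interval 0.01 to 0.48), yet the adjusted p of 0.123 missed the threshold. Against those labelled VAD WT *Irf9* was at 0.14 and not called, but it was called without replicates 1, 3 and 5 (0.48, adjusted p = 6.72e-05). *Irf9* overlaps *Rnf31* on the same strand, so reads in the shared part could have gone to either.

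*Irf7*, at chr7:141262706-141266481 on the minus strand, gave the largest fall of the 9 genes. It was at 670, 706, 687, 837 and 733 in VAS WT and 539, 568, 435, 470 and 546 in VAS *Stra6*-/-, with no overlap, and *Irf7* thus fell by 0.51 in log2 units (standard error 0.16, adjusted p = 0.0230). This call was lost without VAS WT replicate 4 or VAS *Stra6*-/- replicate 3 or 4, where the adjusted p ran from 0.0548 to 0.0661. The libraries labelled VAD *Stra6*-/- had 299, 322, 315, 293 and 289, below all 15 others, and fell by 0.74 against VAS *Stra6*-/- (standard error 0.16, adjusted p = 4.90e-04). Those labelled VAD WT had 1223, 646, 1141, 632 and 1236. The difference of the libraries labelled VAD *Stra6*-/- from those labelled VAD WT was -1.62 (standard error 0.16, adjusted p = 2.32e-08), and it was -1.07 without replicates 1, 3 and 5 labelled VAD WT and -1.98 without replicates 2 and 4. In libraries labelled VAD WT against VAS WT *Irf7* differed by 0.36 (adjusted p = 0.185), and passed the threshold without replicate 2 labelled VAD WT (0.50, adjusted p = 0.0323) or replicate 4 (0.50, adjusted p = 0.0241). *Phrf1* overlaps *Irf7* on the opposite strand, so the same limit on strand holds as for *Usp18*.

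*Ifi44*, at chr3:151730922-151749960 on the minus strand, was the least abundant of the 9 genes and was called in no comparison with all libraries. It ran from 22.6 to 44.7 in VAS WT, 13.4 to 81.9 in those labelled VAD WT, 22.0 to 39.6 in VAS *Stra6*-/- and 28.7 to 60.4 in the libraries labelled VAD *Stra6*-/-. At these levels the 95% interval of the difference against VAS *Stra6*-/- reached from -0.37 to 1.27, the widest of the 9 genes. Against those labelled VAD WT the difference was 0.34, and it was called without replicates 1, 3 and 5 (1.02, adjusted p = 0.0364).

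The diet difference itself differed between the genotype labels for 4 of the 9 genes. The interaction, the diet difference among libraries labelled *Stra6*-/- minus that among libraries labelled WT, was 1.31 for *Ifit3* (adjusted p = 1.07e-09) and 1.29 for *Bst2* (adjusted p = 1.38e-07). It was -1.11 for *Irf7* (adjusted p = 4.10e-04) and -0.74 for *Stat2* (adjusted p = 0.00354). Over all genes the interaction was called positive in 19.5% and negative in 24.8%, near the 22.2% of the 9 genes in each direction. For *Ifit3* and *Bst2* the diet difference was below 0 among libraries labelled WT and above 0 among libraries labelled *Stra6*-/-. The interaction was not called for *Ifit1* (0.52, 95% interval -0.07 to 1.10), *Isg15*, *Irf9*, *Ifi44* and *Usp18* with all libraries. Without replicates 2 and 4 labelled VAD WT it was called for *Isg15* (-0.91, adjusted p = 0.00247) and *Irf9* (-0.33, adjusted p = 0.00717), and *Ifit1* was at 0.0760. Without replicates 1, 3 and 5 it was called for *Ifit1* (1.18, adjusted p = 1.16e-05) and for *Isg15* in the other direction (0.75, adjusted p = 0.0269). In the same order of refits *Stat2* was at -1.02 and -0.30 and *Irf7* at -1.47 and -0.56. The level of *Stra6* alone does not settle the genotype of either VAD group, so the genotype in this interaction is that of the labels.

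Libraries labelled VAD WT fell into the same sets for most of the 9 genes. Replicates 1, 3 and 5 were above replicates 2 and 4, with no overlap, in *Ifit1*, *Ifit3*, *Isg15*, *Stat2*, *Irf7* and *Irf9*, and the sets overlapped in *Bst2*, *Ifi44* and *Usp18*. The split was one of whole libraries and not of these genes alone. Over all genes with enough reads, the chi-square per gene between 2 libraries was 153 to 194 across the sets and 7.04 to 10.8 within them. The share of all genes that split without overlap was not counted. *Isg15* was at 552 to 636 against 169 to 202, *Irf7* at 1141 to 1236 against 632 to 646, and *Stat2* at 1231 to 1591 against 817 to 859. *Stra6* went the other way, at 669 to 697 against 1340 to 1529. What they showed against VAS WT thus depended on the libraries kept. With replicates 1, 3 and 5 alone, 5 genes were called higher (*Ifit1*, *Isg15*, *Stat2*, *Irf7* and *Irf9*, by 0.27 to 1.06) and *Bst2* lower. The share over all genes rose too, to 17.6% higher and 20.3% lower. With replicates 2 and 4 alone, none was called higher and 5 were called lower (*Ifit1*, *Ifit3*, *Isg15*, *Irf9* and *Bst2*, by -0.60 to -0.30), where 17.1% of all genes were higher and 15.7% lower. *Bst2* was lower in both cases, by -0.50 and -0.42. Leaving out replicates 1, 3 and 5 also raised the number of genes called in the libraries labelled VAD *Stra6*-/- against those labelled VAD WT from 5 to 8, with 6 of them higher and 2 lower, where 23.4% of all genes were higher and 28.8% lower.

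The correlation among the 9 genes rested on the same libraries. Of the 36 pairs of genes, 33 correlated positively over deviations from group means in 20 libraries, with a median Pearson's r of 0.43. Without the 5 libraries labelled VAD WT 19 of 36 were positive and the median was 0.02. The genes most like the mean deviation of the 9 over all 20 libraries were *Ppp1r3c* (r = 0.95), *Sdr42e1* (0.95), *Cdk5* (0.95), *Scd2* (0.95), *Crot* (0.95), *Pts* (0.94), *Fdft1* (0.94), *Krt78* (0.94), *Rbx1* (0.94) and *Gdpd2* (0.94), out of 14745 genes compared. Without these 5 their r was 0.33 to 0.73 over 15 libraries. None of the 10 is in an interferon list, and all points share the size factor of their library.

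**Figure D4:**
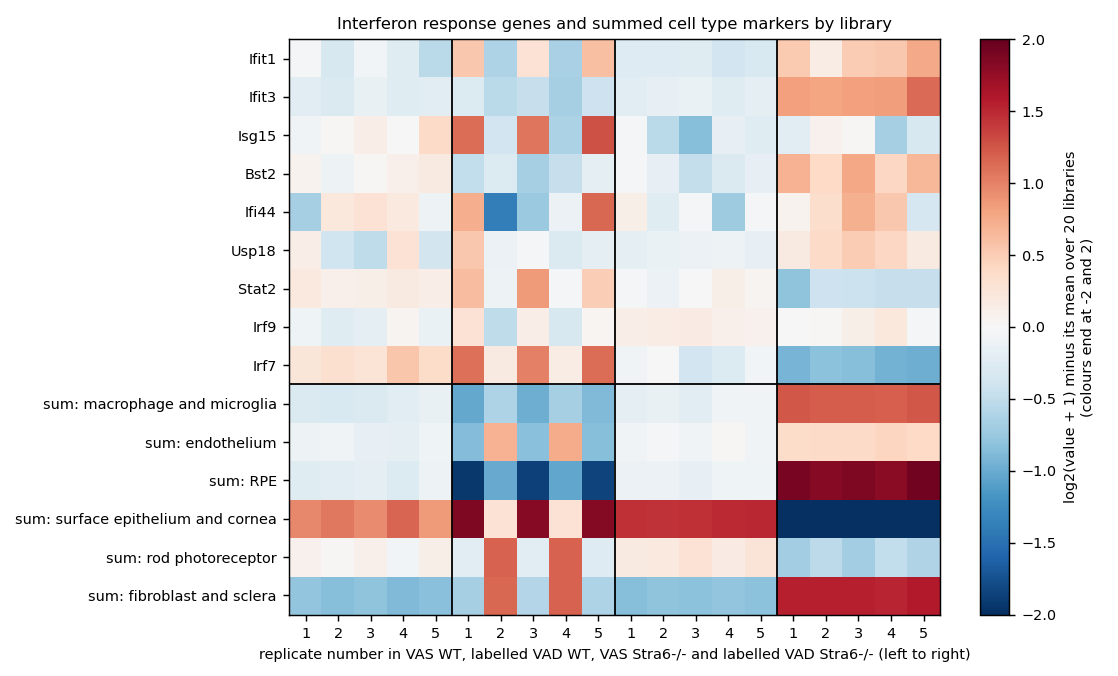
Log2(value + 1) minus its mean over the 20 libraries (colour) for the 9 genes and for the summed markers of 6 cell types, with 1 column per library in 4 groups of 5. The columns labelled VAD WT alternate between replicates 1, 3 and 5 and replicates 2 and 4 in *Ifit1*, *Isg15*, *Stat2*, *Irf7* and in the epithelial, endothelial, rod and fibroblast sums.

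Upstream of these genes, interferon transcripts themselves were near the limit of detection. Of 21 ligand genes, 15 had no read in any library and 18 had under 5 reads in total, out of 358336475 reads over all libraries. The most abundant were *Ifnz* with 33 reads in 6 libraries and *Ifna13* with 19 reads in 5. *Ifnb1* had no read, which allows up to 3 counts over all libraries, and *Ifng* had 4. No fold change is given for these genes.

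The receptors were all expressed, and all 6 were called in the libraries labelled VAD *Stra6*-/- against VAS *Stra6*-/-, 3 higher and 3 lower, where 24.4% of all genes were higher and 28.8% lower. *Ifnar2*, a chain of the type I receptor, rose from 571 to 628 up to 958 to 1215, by 0.84 (adjusted p = 1.39e-06). *Ifnlr1*, the specific chain of the interferon lambda receptor of epithelia, fell from 210 to 248 down to 18.1 to 37.9, by -3.18 (adjusted p = 5.86e-11). In the same comparison the surface epithelium markers fell, 10 of 10 genes, while 9 of 10 markers of the RPE, also an epithelium, rose. The part of either in the fall of *Ifnlr1* was not tested. In VAS *Stra6*-/- against VAS WT, *Ifngr1* rose by 0.45 (adjusted p = 2.45e-05) and *Ifnar1* fell by 0.28 (adjusted p = 0.0112).

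Among 10 kinase and transcription factor genes, 5 rose and 1 fell in VAS *Stra6*-/- against VAS WT, where 15.9% of all genes were higher and 10.8% lower. *Stat3*, which mostly carries the signals of IL-6 type cytokines, went from 1853 to 2146 up to 3985 to 4346, a log2 fold change of 1.05 (adjusted p = 2.80e-07), and *Jak2* rose by 0.76 (adjusted p = 2.08e-06). In the libraries labelled VAD *Stra6*-/- against those labelled VAD WT, 4 of the 10 rose and 5 fell. Over all genes 26.2% rose and 29.6% fell. These counts were 4 and 6 without replicates 2 and 4 labelled VAD WT, beside 30.7% and 32.5% of all genes. Without replicates 1, 3 and 5 they were 3 and 2, beside 23.4% and 28.8%. In the libraries labelled VAD *Stra6*-/- against VAS *Stra6*-/-, 1 of the 10 rose and 7 fell, where 24.4% and 28.8% of all genes did. *Tyk2*, the kinase bound to the type I receptor, fell by 1.62 (adjusted p = 1.10e-08) and *Irf1*, a transcription factor of the interferon gamma response, by 1.41 (adjusted p = 6.26e-06). Among 15 genes of nucleic acid sensing, which trigger interferon production, 2 rose (13.3%) and 5 fell (33.3%) in that comparison, where 24.4% of all genes were higher and 28.8% lower. *Tlr7*, a sensor of RNA, rose by 2.25 (adjusted p = 3.40e-04) from 15.3 to 54.9 up to 82.0 to 177, whereas *Mb21d1*, which encodes the DNA sensor cGAS, fell by 2.03 (adjusted p = 3.87e-05).

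Other targets of type I interferon moved in both directions. Of 54 such genes, 15 rose (27.8%) and 22 fell (40.7%) in the libraries labelled VAD *Stra6*-/- against VAS *Stra6*-/-, with a median log2 fold change of -0.05, where 24.4% of all genes were higher and 28.8% lower. The share that rose thus lay near that of all genes. *Oasl1* fell from 1007 to 1310 down to 50.5 to 110, by -4.14 (adjusted p = 5.85e-15), and *Ifitm1*, which encodes a membrane protein that blocks virus entry, from 6987 to 7703 down to 502 to 630, by -3.78 (adjusted p = 1.89e-13). *Rsad2*, which encodes viperin and is named here after its values were seen, rose by 1.48 (adjusted p = 0.00631). Against those labelled VAD WT 15 rose (27.8%) and 20 fell (37%), beside 26.2% and 29.6% of all genes. Without replicates 2 and 4, 28 fell (51.9%, beside 32.5% of all genes). Without replicates 1, 3 and 5, 15 fell (27.8%, beside 28.8% of all genes). On the VAS diet 6 were higher (11.1%) and 5 lower (9.26%) in *Stra6*-/-, beside 15.9% and 10.8% of all genes. In libraries labelled VAD WT against VAS WT 1 was higher (1.85%) and 7 were lower (13%), beside 3.29% and 5.5% of all genes. These counts became 11 and 10 (20.4% and 18.5%) without replicates 2 and 4, beside 17.6% and 20.3% of all genes. Without replicates 1, 3 and 5 they were 4 and 25 (7.41% and 46.3%), beside 17.1% and 15.7% of all genes.

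The targets of interferon gamma moved more in a single direction. Of 26 genes, 15 rose (57.7%, where 24.4% of all genes did) and 4 fell in the libraries labelled VAD *Stra6*-/- against VAS *Stra6*-/-, with a median of 0.83. Against those labelled VAD WT 14 rose (53.8%, where 26.2% of all genes did) and 4 fell, also with a median of 0.83. Without replicates 2 and 4, 13 rose (50%, where 30.7% of all genes did). Without replicates 1, 3 and 5, 15 rose (57.7%, where 23.4% of all genes did). The chemokine gene *Cxcl10* went from 23.0 to 36.6 up to 138 to 324, by 3.12 (adjusted p = 2.27e-09), *Cxcl9* rose by 2.28 (adjusted p = 2.29e-04) and *Tgtp1*, an interferon-inducible GTPase gene, by 2.20 (adjusted p = 7.45e-06). In VAS *Stra6*-/- against VAS WT the direction was the opposite, with 13 genes lower (50%, where 10.8% of all genes were lower), none higher and a median of -0.62, led by *Tgtp2* (-1.62, adjusted p = 5.63e-05) and *Cxcl10* (-1.61, adjusted p = 1.17e-04). In libraries labelled VAD WT against VAS WT 4 were lower (15.4%, where 5.5% of all genes were) and none higher by limma. The number lower was 5 (19.2%) without replicates 2 and 4, with 2 higher (7.69%), beside 20.3% and 17.6% of all genes. It was 11 (42.3%) without replicates 1, 3 and 5, beside 15.7% of all genes. At an unadjusted p under 0.05 the number higher was 0 in both comparisons with VAS WT, against 17 and 8 lower. Macrophage and microglia markers moved with the rise, 12 of 12 higher against VAS *Stra6*-/- and 11 of 12 against those labelled VAD WT. In VAS *Stra6*-/- against VAS WT, 1 of these 12 was higher and 3 were lower, and in libraries labelled VAD WT against VAS WT 8 were lower and none higher. Against VAS *Stra6*-/-, 9 of 10 RPE, 6 of 6 fibroblast and sclera and 4 of 10 endothelium markers were also higher in the libraries labelled VAD *Stra6*-/-. There, 10 of 10 surface epithelium, 4 of 8 rod and 2 of 6 skeletal muscle markers were lower. The part of any cell type in the result was not tested.

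**Figure D5:**
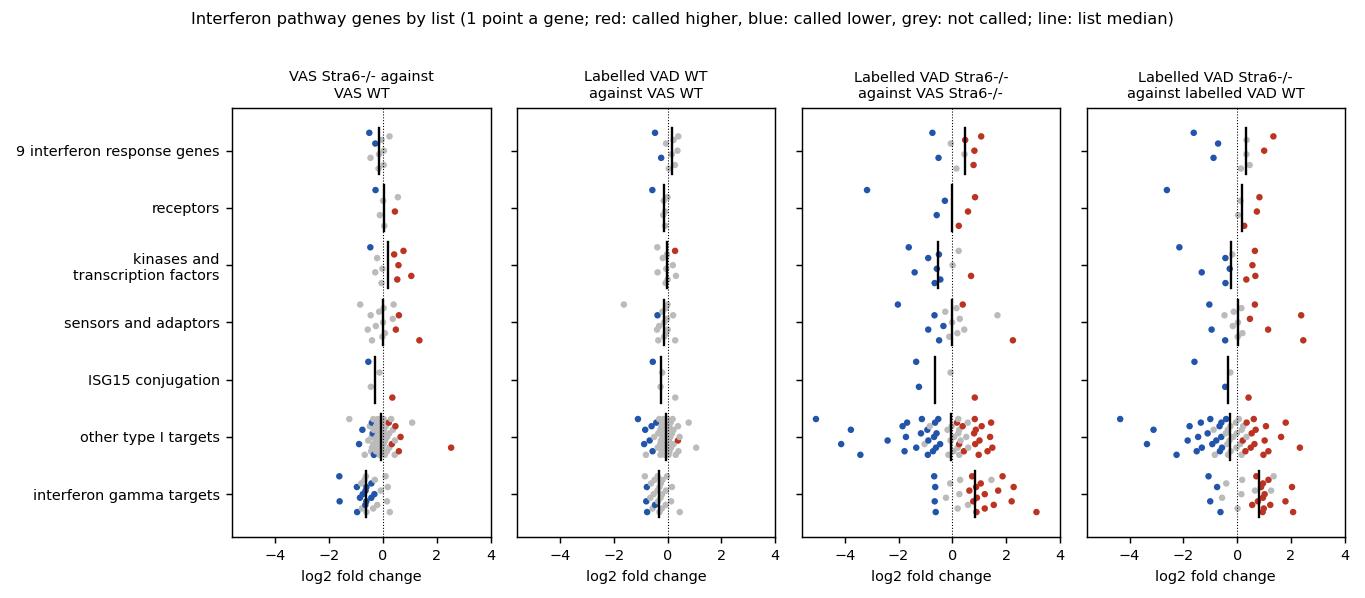
Log2 fold change of each gene (points) of the 9 genes and of 6 interferon pathway lists in the 4 comparisons, with the list median as a line. Interferon gamma targets had a median of -0.62 in VAS *Stra6*-/- against VAS WT and of 0.83 in both comparisons of the libraries labelled VAD *Stra6*-/-, while the 54 other type I targets spread to both sides.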

How the data were processed

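RNA-seq of RPE-choroid was analysed in 20 libraries, 5 in each of 4 groups set by GEO's genotype and diet labels. Per the submitters' processing notes, the authors used STAR 2.5.3a, RSEM 1.2.30 and DESeq2 1.32.0 on GRCm38/mm10. The values they deposited are a normalized signal: each library's counts per gene over its DESeq2 size factor. In 19 libraries whole reads were recovered from it within 0.01 of a whole number. Replicate 1 of the libraries labelled VAD *Stra6*-/- had a step near 1, so that whole reads and the values themselves are hard to tell apart at low counts. It was left out of tests on counts, and its reads enter only depth totals and the filter.

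Groups were compared with limma 3.58.1 (R 4.3.3) on log2(value + 1), with 4 group means over all 20 libraries, an intensity trend and Benjamini-Hochberg adjustment over the 18807 genes with at least 5 recovered reads in total. The pseudocount of 1 understates fold changes of low genes. Tests are two-sided, and intervals are limma's 95% intervals. Alternatives were pseudocounts, filters, scalings, edgeR 4.0.16, DESeq2 1.42.0, a replicate block, a fit of the compared groups only, a fold change threshold and left-out libraries. The fit without replicates 1, 3 and 5 labelled VAD WT, and the lists in both fits without part of that group, were added after the values were seen. The scripts were tested on simulated data.

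The 9 genes, the pathway and marker lists and the tests were chosen with earlier results of these data known. The text names the 9 genes, *Stra6*, sex-linked genes, up to 3 genes of each pathway list and comparison with the largest called change and a mean of at least 10, and the 10 genes most like the 9, plus those named as chosen later. The single values of 1 listed gene are not reported here. *Xist* and *Ddx3y* stand for 5 sex-linked genes. Lists for skeletal muscle, fibroblast and sclera, endothelium and rods, 8 cell types in all, served as checks. Positions are from GENCODE vM21, and promoter sequences from RefSeq, GRCm38.p6. Same-numbered replicates were not paired by the labels or the data. In no pair of libraries within a group did the counts agree within sampling noise.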

Additional observations from a re-analysis of the deposited data

Results flagged for a closer look

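In the libraries labelled VAD *Stra6*-/-, *Ifit3* in replicate 5 was at 3763, above the 2978 to 3071 of the other 4, and *Stat2* in replicate 1 was at 503, below the 637 to 655 of the others. In those labelled VAD WT, *Usp18* in replicate 1 was at 237, above the 133 to 157 of the others. Each sample stood apart from its group by Dixon's criterion. Of 36 gene and group pairs screened, about 1 in 20 would be marked by chance. With that library left out, *Ifit3* rose by 1.01 and *Stat2* fell by 0.45 against VAS *Stra6*-/-, and both stayed called, while *Usp18* in libraries labelled VAD WT against VAS WT, not called with all libraries (0.15), was at 0.01.

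The diet difference itself differed between the genotype labels by limma's interaction term for *Ifit3* (1.31), *Bst2* (1.29), *Stat2* (-0.74) and *Irf7* (-1.11). Over all genes this term was called positive in 19.5% and negative in 24.8%, near the 22.2% of the 9 genes in each direction. The calls of these 4 genes were kept under each alternative with the same rule for a call (32 or 33 a gene), with values of 1.22 to 1.44, 1.23 to 1.38, -1.02 to -0.30 and -1.47 to -0.56. With a difference over 1 required as well *Stat2* was not called, and with one over 2 none was. The level of *Stra6* alone does not settle the genotype of either VAD group, which limits what genotype means here.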

How the results depend on the processing

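The main limits are depth and the libraries: *Ifi44* and *Usp18* have few reads, the libraries labelled VAD WT are of 2 kinds, and *Stra6* does not settle the genotype of either VAD group. Of 1486 values of single genes under the alternatives, 1377 kept their direction and their side of the threshold, 46 lost and 31 gained a call, and 32 changed direction. Of these 32, 30 were of differences not called in the first place. TMM scaling and equal totals moved the median over all genes by less than 0.1. The causes of the changes below were not tested. *Ifit3* in libraries labelled VAD WT against VAS WT kept its call under 20 of 34 alternatives with the same rule for a call and *Isg15* in the libraries labelled VAD *Stra6*-/- against those labelled VAD WT under 13 of 33.

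The number of the 9 genes called in VAS *Stra6*-/- against VAS WT was 2, and it was 1 without the intensity trend, 5 with the compared groups alone, and 4 without replicates 2 and 4 labelled VAD WT or without replicates 1, 3 and 5. In libraries labelled VAD WT against VAS WT this number was 2 (8.78% of all genes). It was 1 with edgeR (8.13%), without the trend (7.73%) and with the compared groups alone (3.40%). Without replicates 2 and 4 labelled VAD WT it was 6 (37.9%), and without replicates 1, 3 and 5 it was 5 (32.8%). In the libraries labelled VAD *Stra6*-/- against those labelled VAD WT it was 5 (55.9% of all genes), and 8 without replicates 1, 3 and 5 labelled VAD WT (52.2%). With a log2 fold change over 1 required, the 4 comparisons had 0, 0, 1 and 3 genes, beside 4.92%, 1.74%, 23.9% and 26.9% of all genes. With one over 2 the comparisons and the interaction had 0, beside 1.10%, 0.41%, 9.08%, 10.4% and 10.4% of all genes. The tools edgeR and DESeq2 were not run with this rule. Leaving out each library in turn gave 0 to 2, 1 to 2, 5 to 6 and 4 to 6 genes in the 4 comparisons and 4 for the interaction. The shares of all genes in these fits are not given here, so these counts show only how stable the calls were.

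The replicate numbers do not pair the samples, since 1 of 30 same-number correlations of deviations was over 0.1 (range -0.14 to 0.11). The replicate block gave 2, 2, 6, 6 and 4 genes called, which changed no count by over 1.5 times. The shares of all genes called were then 25.6%, 7.69%, 52.8%, 55.4% and 43.6%.

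Direction changed as follows. In VAS *Stra6*-/- against VAS WT, *Ifit3* was -0.0794 and *Usp18* -0.0855 with equal totals, *Usp18* was -0.0323 with edgeR and -0.0103 with DESeq2, and left-out libraries gave -0.13 to 0.00014 for *Ifit1* and -0.0565 to 0.144 for *Usp18*. In libraries labelled VAD WT against VAS WT, *Irf9* was -0.0169 with equal totals, *Ifi44* was 0.18 with edgeR, 0.18 with DESeq2 and 0.39 without replicates 2 and 4 labelled VAD WT, and left-out libraries gave -0.0488 to 0.152 for *Irf9* and -0.36 to 0.27 for *Ifi44*. Without replicates 1, 3 and 5 labelled VAD WT this comparison gave -0.39 for *Ifit1*, -0.60 for *Isg15*, -0.21 for *Stat2*, -0.18 for *Irf7*, -0.30 for *Irf9* and -0.0341 for *Usp18*. In the libraries labelled VAD *Stra6*-/- against those labelled VAD WT, *Irf9* was -0.0874 and *Ifi44* -0.11 without replicates 2 and 4 labelled VAD WT, and *Isg15* was 0.28 without replicates 1, 3 and 5. The interaction went from 4 genes (44.2% of all genes) to 6 without replicates 2 and 4 (54.7%) and to 6 without replicates 1, 3 and 5 (50.6%). In the latter fit it was 0.75 for *Isg15* and 0.24 for *Irf9*. *Ifit1* summed with *Ifit1bl1* and *Ifit1bl2* was -0.98 in libraries labelled VAD WT against VAS WT, -2.79 and -2.17 in the libraries labelled VAD *Stra6*-/- against VAS *Stra6*-/- and those labelled VAD WT, and -1.81 in the interaction.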
